A study of Mus musculus with 9 samples.

Results

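The 10 genes described here encode neuropeptides that are known from the inner retina: Npy, Vip, Sst, Tac1, Penk, Cck, Crh, Gal, Adcyap1 and Cartpt. They were taken by gene symbol from a count table of 54532 genes, where each of the 10 symbols had 1 row. The set was chosen with earlier results of these data known. All 10 were among the 17540 genes with enough counts to be tested. The table holds retinas of 9 wild type C57BL/6 mice at postnatal day (P) 17, with 3 mice in each of 3 groups. Control mice were raised in room air and carry the label Control+DMSO. Oxygen-induced retinopathy (OIR) mice had spent a period in high oxygen, which obliterates the central retinal vessels. They were back in room air from P12, when the avascular retina becomes relatively hypoxic. Their label is Hypoxia+DMSO, and at P12 their eyes had received a single injection of the vehicle, DMSO. Treated OIR mice went through the same oxygen exposure and received a single intraocular injection at P12 of 32-134D (70 ng by the treatment label), an inhibitor of the hypoxia-inducible factors (HIFs). The labels do not say whether the control eyes were injected. Mice are called by the numbers in their labels: control 1, 6 and 7, OIR 3, 5 and 6, and treated OIR 2, 5 and 10.

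Neuropeptides are cut from larger precursor proteins, packed into dense-core granules together with granins, and released to act on G protein-coupled receptors. In the retina most are made by subsets of amacrine cells, the interneurons of the inner retina, where a peptide is usually held beside GABA, glycine or acetylcholine; Adcyap1 and Cartpt are also known from retinal ganglion cells, the output neurons. A low peptide transcript in whole tissue can mean fewer cells of a type or less RNA per cell, and in bulk RNA these cannot be told apart. The rod transducin gene Gnat1, a defining marker of the tissue, was at 7880 to 15200 CPM (counts scaled to 1e6 per library) in the 9 retinas.

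Library totals lay between 16028731 and 27213184 counts. The library of treated OIR mouse 2 stood apart, since crystallin genes of the lens took 15.8% of its counts against at most 0.186% in the other 8 libraries. Its summed amacrine and ganglion cell markers were the lowest of the 9 (values below), and the results that it moved most are also given without it. Levels are given below as CPM scaled by the trimmed mean of M-values (TMM). A gene was called a differentially expressed gene (DEG) where its p from the quasi-likelihood test of edgeR, adjusted by Benjamini-Hochberg, was below 0.05 and the log2 fold change was beyond 1 in either direction. By female Xist and male Y-linked counts, control 1, OIR 3 and treated OIR 2 and 5 were female and the other 5 mice male.

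Sequence upstream of these genes was examined because several of the precursors are classic targets of the cyclic AMP response element (CRE), TGACGTCA, which is bound by CREB. Its core is TGACG, which reads CGTCA on the opposite strand. Of the 10 genes, 8 had a start site in the RefSeq promoter table (GRCm38.p6). The core lay within 250 bases upstream of 6 of these 8 (Vip, Sst, Tac1, Cck, Adcyap1 and Cartpt), against 17.8% of 32851 promoters. The full CRE lay upstream of Sst and Cartpt, against 1.55% of all promoters. Of the 2 common cores of the HIF response element, searched on both strands, ACGTG was found upstream of Tac1, Cck and Adcyap1 (16.6% of all promoters). The other core, GCGTG, was found upstream of Npy, Sst and Tac1 (28.2% of all promoters). Upstream here is relative to the RefSeq start: the 120 bases before the start of Tac1 and Cartpt, and 114 of those before that of Sst, lie inside the span of the gene in the count table, and a second RefSeq start of Adcyap1 has no core in the 120 bases before it. These matches are descriptions of the letters and not of bound sites. The 120 bases before the start of Vip (chr10:5639098-5639217, plus strand), Cck (chr9:121495695-121495814, minus strand) and Adcyap1 (chr17:93198897-93199016, plus strand), and the 30 bases around the full CRE of Sst (chr16:23890874-23890903, minus strand) and Cartpt (chr13:99900777-99900806, minus strand), are printed 5′ to 3′ with the core or full element in capitals.
Vip: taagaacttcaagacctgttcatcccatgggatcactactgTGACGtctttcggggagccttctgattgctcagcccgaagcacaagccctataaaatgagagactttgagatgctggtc
Cck: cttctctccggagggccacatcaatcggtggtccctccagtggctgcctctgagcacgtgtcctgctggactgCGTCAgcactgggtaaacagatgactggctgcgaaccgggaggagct
Adcyap1: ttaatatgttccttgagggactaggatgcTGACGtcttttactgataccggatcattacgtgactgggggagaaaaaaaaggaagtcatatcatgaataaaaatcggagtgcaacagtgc
Sst: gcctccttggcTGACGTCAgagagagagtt
Cartpt: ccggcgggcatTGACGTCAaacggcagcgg
The core begins 79 bases before the start of Vip, 47 before that of Cck and 91 before that of Adcyap1, and the full element begins 48 bases before the start of Sst and 112 before that of Cartpt.

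Per kilobase of transcript, the control retinas held far more Cartpt than any other of the 10 transcripts. Cartpt, the precursor of the cocaine- and amphetamine-regulated transcript peptides, stood at 98.3 ± 13.8 CPM per kb (SD, n = 3). Npy followed at 33.6 ± 6.93, Penk at 19.5 ± 18.2 and Cck at 15.5 ± 1.87 CPM per kb. Penk overlapped both neighbours and could not be placed, while the lowest control value of Npy, 26.6 CPM per kb, lay above the highest of Cck, 16.8. Sst at 6.66 ± 2.41 and Tac1 at 6.28 ± 0.619 CPM per kb overlapped each other and lay below Cck. The lowest 4 were Vip at 3.14 ± 0.369, Gal at 2.60 ± 1.06, Adcyap1 at 1.98 ± 1.07 and Crh at 1.25 ± 0.207 CPM per kb, each overlapping the next. Of the summed level of the 10 genes per kb, Cartpt was 52.0% ± 4.60 in controls, 38.4% ± 9.17 after OIR and 36.3% ± 8.62 after OIR with treatment (SD, n = 3). Penk made up 10% ± 8.88, 22.9% ± 11.3 and 17.8% ± 7.23 of that sum in the same order.

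**Figure D1:**
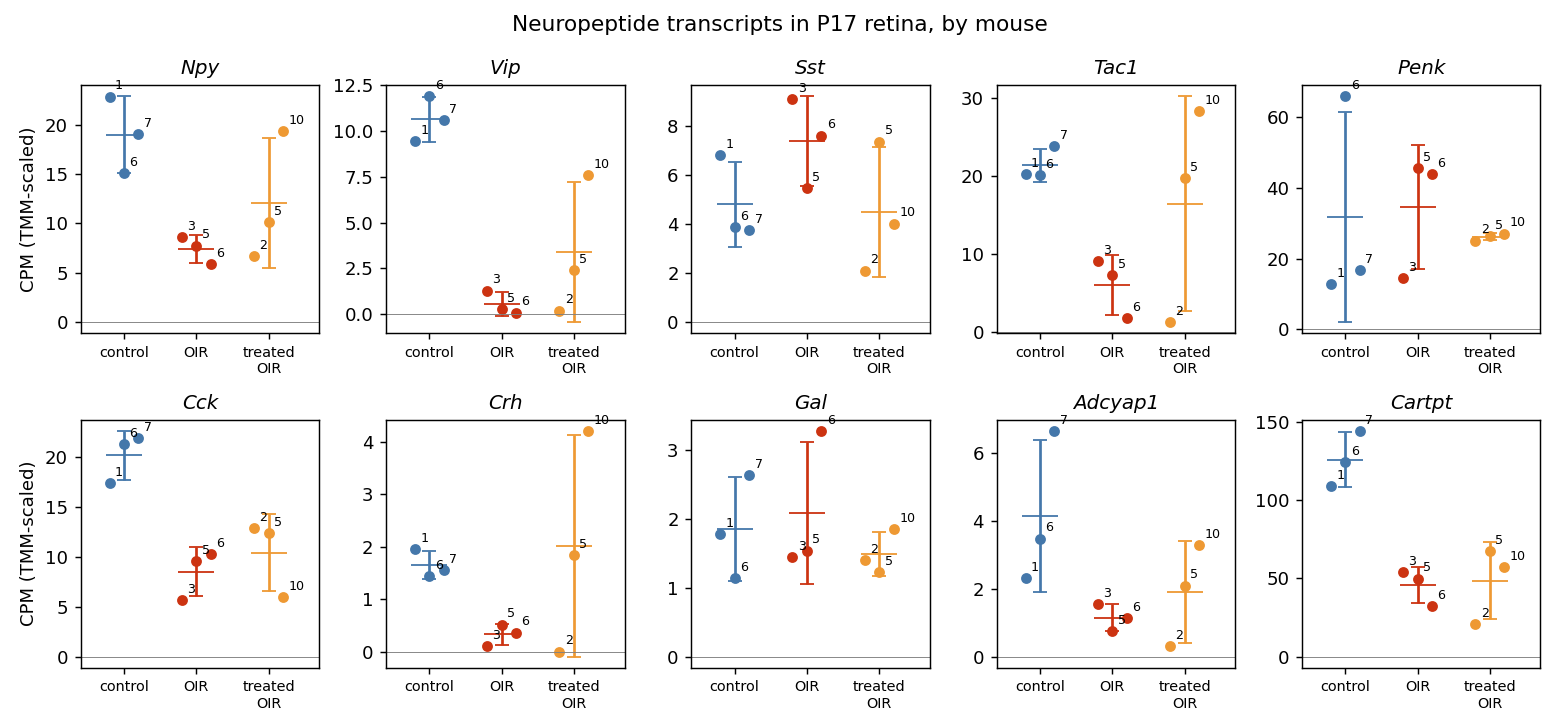
Level of each of the 10 neuropeptide transcripts in each mouse, in TMM-scaled CPM on a linear axis that differs between panels; points are single mice with their numbers, bars are the group mean ± SD (n = 3). For Npy, Vip, Tac1, Cck, Crh, Adcyap1 and Cartpt all 3 OIR mice lie below all 3 control mice.

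The comparison of OIR with control retina asks how these transcripts differ at P17, the peak of neovascularization, after the whole OIR procedure. The earlier high oxygen, the hypoxia that follows and a possible difference in injection cannot be told apart here. For 7 of the 10 genes every OIR mouse was below every control mouse: Vip, Crh, Adcyap1, Tac1, Cartpt, Npy and Cck. Non-overlap in that direction was seen in 17.2% of all genes tested, and in the other direction in 15.9% of all genes and in none of the 10. The median log2 fold change of the 10 genes was -1.41, against 0.03 over all genes. None of the 10 was a DEG in the edgeR fit over all 9 mice (0.302% of all genes were DEGs). At an unadjusted p below 0.05, 5 of the 10 were lower (12.7% of all genes) and none was higher (11.1% of all genes). Other tools called more of them. DESeq2 over the 9 mice called 5 of the 10 (2.30% of its genes) and limma-voom with sample weights 4 (4.69%). Fitted on these 2 groups alone, edgeR called 6 (4.49%) and DESeq2 7 (3.48%). The DESeq2 shares, here and below, are over every gene with a count (30341 over the 9 mice), low ones included. They are therefore not on the same base as the edgeR and limma-voom shares. The count also depended on the library of treated OIR mouse 2, which is in the fit but not in the comparison. Without it edgeR called 7 of the 10, all lower, when 4.97% of all genes were DEGs. Without treated OIR mouse 10 edgeR called 1, Npy (0.542% of all genes).

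Vip, the precursor of vasoactive intestinal peptide, which marks a class of GABAergic amacrine cells and relaxes vascular smooth muscle, showed the largest difference of the 10. Its level was 9.43, 11.9 and 10.6 CPM in control mice 1, 6 and 7, and 1.28, 0.28 and 0.09 CPM in OIR mice 3, 5 and 6. The OIR values rest on 24, 6 and 2 counts, against 165 to 270 counts in the controls. All 3 OIR retinas were thus far below the controls, with OIR mouse 6 the lowest. The fitted log2 fold change was -4.30 ± 1.12 (SE), or 19.7-fold lower, with an adjusted p = 0.0817 in edgeR. Adjusted p-values for Vip over the alternative analyses ranged from 9.82e-05 to 0.239, and it was a DEG in 6 of 19. Adcyap1, the precursor of PACAP, a peptide of the same family that is known to protect retinal neurons, was at 2.30, 3.47 and 6.64 CPM in control mice 1, 6 and 7 and at 1.55, 0.746 and 1.12 CPM in OIR mice 3, 5 and 6. The groups did not overlap, although OIR mouse 3 lay close to control mouse 1. Adcyap1 had a log2 fold change of -1.85 ± 0.71 (adjusted p = 0.161, edgeR), and adjusted p-values ranged from 0.00254 to 0.400 over the alternatives.

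Cartpt, the most abundant of the 10, was at 109, 124 and 144 CPM in control mice 1, 6 and 7 and at 54.1, 49.8 and 32.4 CPM in OIR mice 3, 5 and 6. Every OIR retina was well below the lowest control, and the spread within each group was small beside the gap. In the fit its log2 fold change was -1.47 ± 0.38 (adjusted p = 0.0790, edgeR), with adjusted p-values from 1.16e-11 to 0.240 over the alternatives. Npy, the precursor of neuropeptide Y, made in GABAergic amacrine cells, was at 22.9, 15.1 and 19.1 CPM in control mice 1, 6 and 7 and at 8.61, 7.74 and 5.89 CPM in OIR mice 3, 5 and 6. It was 2.57-fold lower, with a log2 fold change of -1.36 ± 0.36 (adjusted p = 0.0856, edgeR; 9.57e-07 to 0.250 over the alternatives). Cck, the precursor of cholecystokinin, was at 17.4, 21.3 and 21.9 CPM in control mice 1, 6 and 7 and at 5.67, 9.60 and 10.3 CPM in OIR mice 3, 5 and 6. Here OIR mouse 3 was the lowest rather than OIR mouse 6. The log2 fold change was -1.24 ± 0.32 (adjusted p = 0.0797, edgeR; 1.66e-05 to 0.222 over the alternatives).

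Tac1 encodes substance P and neurokinin A, and Crh encodes corticotropin-releasing hormone, which marks a set of amacrine cells. Tac1 was at 20.2, 20.1 and 23.8 CPM in control mice 1, 6 and 7 and at 9.14, 7.27 and 1.75 CPM in OIR mice 3, 5 and 6. The controls were close together and OIR mouse 6 was again far below its group. Its fitted difference was -1.82 ± 0.86 (adjusted p = 0.238, edgeR), and it was a DEG in 2 of 20 alternatives. Crh was at 1.96, 1.44 and 1.55 CPM in control mice 1, 6 and 7 and at 0.107, 0.513 and 0.360 CPM in OIR mice 3, 5 and 6, which rest on 2, 11 and 8 counts. The groups were apart, but at this depth the OIR values carry a large counting error. The log2 fold change was -2.30 ± 1.11 (adjusted p = 0.244, edgeR), and Crh was a DEG in 3 of 19 alternatives.

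The remaining 3 genes overlapped between the groups and were DEGs in none of the 20 alternatives. Sst, the precursor of somatostatin, was at 6.81, 3.86 and 3.74 CPM in control mice 1, 6 and 7 and at 9.09, 5.45 and 7.60 CPM in OIR mice 3, 5 and 6. Its log2 fold change was 0.61 ± 0.44 (adjusted p = 0.434, edgeR), above zero in every alternative. Gal, the precursor of galanin, was low throughout, at 1.14 to 2.64 CPM in controls and 1.44 to 3.28 CPM in OIR retina. Penk, the precursor of the enkephalins, varied widely within the control and OIR groups, at 12.7, 66.0 and 16.7 CPM in control mice 1, 6 and 7 and at 14.5, 45.7 and 44.0 CPM in OIR mice 3, 5 and 6. Control mouse 6 and OIR mice 5 and 6, all male, were high, while control mouse 7, also male, was low. The fitted log2 fold changes were 0.18 ± 0.44 for Gal (adjusted p = 0.842) and 0.13 ± 0.61 for Penk (adjusted p = 0.923), and both changed sign when single mice were left out. Crhbp, a binding protein for corticotropin-releasing hormone that was singled out after its values were seen, had 9.04, 60.7 and 14.1 CPM in control mice 1, 6 and 7 and 27, 54.1 and 59.5 CPM in OIR mice 3, 5 and 6, with the same control mouse high. Penk lies over a gene on the opposite strand, A830012C17Rik, which had 8 counts over all libraries.

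**Figure D2:**
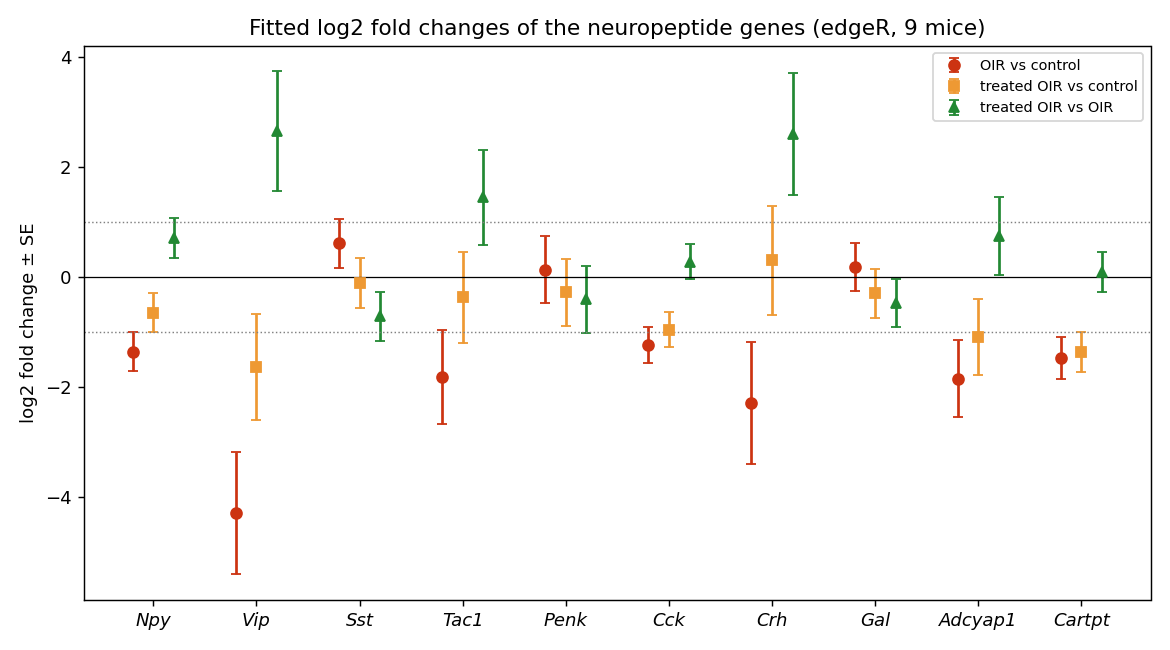
Fitted log2 fold changes with their standard errors for the 10 genes in the 3 comparisons (edgeR, 9 mice); dotted lines mark the fold limit of a DEG. In OIR against control, 7 points lie below -1, and for Vip and Crh the treated OIR against OIR points lie above 2.

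Within the females, 8 of the 10 genes were lower in OIR than in control retina, and within the males 7, with 7 lower in both. The shares of all genes lower within each sex were not computed, here or for the treated mice below. The median difference in log2 CPM was -1.07 between the single females of each group and -1.45 between the males, 2 against 2. Of the genes that did not overlap, Vip differed by -2.78 in females and -5.40 in males, and Cck by -1.60 and -1.11. With sex as a covariate edgeR had 6 of the 10 genes lower at an unadjusted p below 0.05 (11.4% of all genes). None was higher at that limit (10.1% of all genes), and there were 0 DEGs over all genes.

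Taken mouse by mouse, the median distance of the 10 genes from the control mean was -1.21, -1.29 and -1.66 on the log2 scale in OIR mice 3, 5 and 6, and in each of them 7 genes lay below every control. Of all genes tested, 30.0%, 29.0% and 32.3% lay below every control in these mice. In treated OIR mice 2, 5 and 10 it was -2.03, -0.59 and -0.07. Treated mouse 2 had 8 genes below every control, mouse 5 had 6 and mouse 10 had 3, against 33.2%, 28.4% and 26.6% of all genes. Treated mouse 2 thus lay farther from the controls than any OIR mouse. Mouse 10 was within the control range for 5 of the 10 genes and above every control for 2. Of all genes in mouse 10, 26.6% lay below every control and 28.2% above, with the rest within the control range. Mouse 2 was the lowest treated mouse for 8 of the 10 genes.

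**Figure D3:**
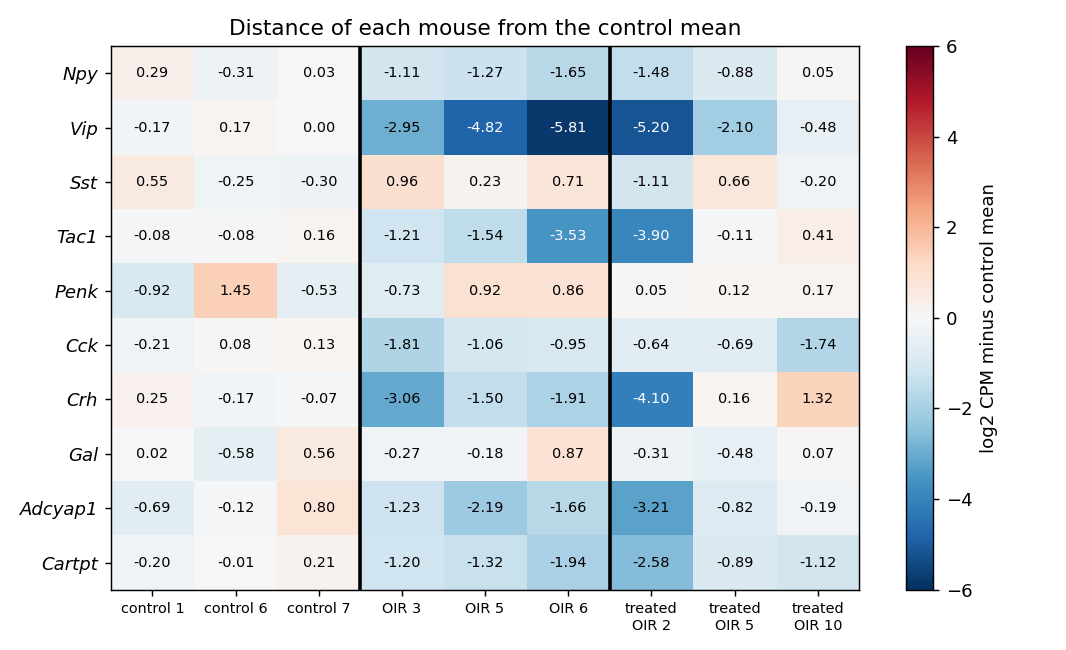
Log2 CPM of each gene in each mouse minus the mean of the 3 controls; blue is lower and red is higher than the control mean, and each square gives its value. Vip at -5.81 in OIR mouse 6 is the lowest value, and the column of treated OIR mouse 2 resembles the OIR columns in sign for most genes.

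The comparison of treated OIR with OIR retina asks what the HIF inhibitor did to these transcripts after the oxygen exposure. None of the 10 genes was a DEG, and 0.00% of all genes were: edgeR called no gene at all, DESeq2 over the 9 mice called 19 and limma-voom 1, none of them among the 10. At an unadjusted p below 0.05 edgeR had 2 of the 10 higher, Vip and Crh (2.39% of all genes), and none lower (2.30%). No gene of the 10 had every treated mouse above every OIR mouse (3.74% of all genes) or below (5.39%). The median log2 fold change of the 10 was 0.49, against 0.01 over all genes. Without treated OIR mouse 2 the median was 0.75 and 6 of the 10 were higher at an unadjusted p below 0.05, namely Npy, Vip, Tac1, Crh, Adcyap1 and Cartpt, when 8.35% of all genes were. None was a DEG then either, the adjusted p being 0.19 or more. Treated mice 5 and 10 were above every OIR mouse for 7 and 6 of the 10 genes (26.2% and 27.8% of all genes), and treated mouse 2 for 1 (27%). Without treated mouse 10 none of the 10 was at an unadjusted p below 0.05, and the log2 fold changes were 1.26 for Vip, 1.47 for Crh and 0.80 for Tac1. Fitted on these 2 groups alone, edgeR likewise had 0 of the 10 at that limit.

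Vip was at 0.19, 2.39 and 7.61 CPM in treated OIR mice 2, 5 and 10, from 3, 39 and 148 counts. Mouse 2 lay among the OIR mice, mouse 5 above them and mouse 10 near the controls. The log2 fold change against OIR was 2.66 ± 1.09 (adjusted p = 1, edgeR), and 3.25 ± 0.76 (adjusted p = 0.190) without mouse 2. Crh was at 0 counts in treated mouse 2, which allows up to 0.19 CPM (3 counts, counting error only), and at 1.84 and 4.21 CPM in mice 5 and 10. Mouse 10 thus held more Crh than any other of the 9 mice. For Crh the log2 fold change was 2.60 ± 1.11 (adjusted p = 1, edgeR), and 3.20 ± 0.58 (adjusted p = 0.190) without mouse 2. Tac1 was at 1.33, 19.7 and 28.3 CPM in treated mice 2, 5 and 10, the first below every OIR mouse and the last above every control. Its log2 fold change was 1.45 ± 0.86 (adjusted p = 1, edgeR) and 2.02 ± 0.49 (adjusted p = 0.190) without mouse 2.

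Npy was at 6.66, 10.1 and 19.4 CPM in treated mice 2, 5 and 10, with a log2 fold change of 0.71 ± 0.36 against OIR (adjusted p = 1, edgeR) and 1.03 without mouse 2. Adcyap1 was at 0.317, 2.09 and 3.29 CPM in the same mice (0.75 ± 0.71, adjusted p = 1), and its log2 fold change was 1.27 without mouse 2. In both genes mouse 2 was the lowest and mouse 10 the highest treated mouse, as in Vip, Crh and Tac1. Cck and Cartpt did not share that order. Cck was at 12.9, 12.4 and 5.96 CPM in treated mice 2, 5 and 10, so that the mouse lowest in most genes was here the highest. Cartpt was at 20.8, 67.2 and 57.3 CPM, with mice 5 and 10 above every OIR mouse but well below every control. Sst was at 2.09, 7.36 and 4.01 CPM, Penk at 25.1, 26.3 and 27.1 CPM and Gal at 1.40, 1.23 and 1.85 CPM in treated mice 2, 5 and 10. The log2 fold changes against OIR were 0.28 ± 0.32 for Cck, 0.09 ± 0.37 for Cartpt, -0.72 ± 0.45 for Sst, -0.41 ± 0.61 for Penk and -0.48 ± 0.44 for Gal, with unadjusted p-values from 0.141 to 0.806. Without mouse 2 they were 0.13 for Cck, 0.48 for Cartpt and -0.35 for Sst. Within the males, 1 treated mouse against 2 OIR mice, 4 of the 10 genes were lower and the median difference was 1.01 in log2 CPM. Within the females, 2 against 1 and with treated mouse 2 among them, 7 were lower and the median was -0.33.

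The comparison of treated OIR with control retina shares its mice with both comparisons above and asks how far treated retinas stood from normal. Of the 10 genes 9 had a log2 fold change below zero, with a median of -0.51 against 0.01 over all genes. None was a DEG in edgeR (0.0171% of all genes were), while DESeq2 over the 9 mice called 1, Cartpt (0.626% of its genes), and limma-voom 2, Cck and Cartpt (1.05%). At an unadjusted p below 0.05 edgeR had 2 of the 10 lower, Cck and Cartpt (8.60% of all genes), and none higher (10%). For Vip, Cck and Cartpt every treated mouse was below every control (12.2% of all genes), and no gene was entirely above (12.8%). Cartpt had a log2 fold change of -1.37 ± 0.37 (adjusted p = 0.146, edgeR) and Cck of -0.96 ± 0.32 (adjusted p = 0.191). Without treated mouse 2 they were -1 ± 0.21 for Cartpt and -1.13 ± 0.34 for Cck, with adjusted p-values of 0.146 and 0.210. Vip had -1.64 ± 0.97 (adjusted p = 0.383) and -1.08 without treated mouse 2, and the other 7 genes had unadjusted p-values from 0.100 to 0.819. Without treated mouse 10 the 2 genes at an unadjusted p below 0.05 became 5, joined by Npy, Vip and Adcyap1, and 9.88% of all genes were lower at that limit.

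The markers of the cells that hold these peptides were low in the same mice. All 12 amacrine markers were below every control in every OIR mouse, 10 of them at an unadjusted p below 0.05 and none at an adjusted p below 0.05, with a median log2 fold change of -1.62. All 12 ganglion cell markers were also below, 5 at an unadjusted p below 0.05 and none adjusted, with a median of -1.87. Over all genes tested, 17.2% were below every control in every OIR mouse and 12.7% were lower at an unadjusted p below 0.05. The median over all genes was 0.03. The rod markers had a median of -0.01, with 1 of 8, Nr2e3, higher at an unadjusted p below 0.05 (11.1% of all genes). Summed amacrine markers were at 1490 to 2060 CPM in controls, at 740, 604 and 395 CPM in OIR mice 3, 5 and 6, and at 322, 1010 and 1420 CPM in treated mice 2, 5 and 10. Summed ganglion cell markers were at 1570 to 2220 CPM in controls, at 786, 490 and 189 CPM in OIR mice 3, 5 and 6, and at 125, 1260 and 1300 CPM in treated mice 2, 5 and 10. No marker of either list was at 0 in any library. Without treated mouse 2, 11 of the 12 amacrine and 9 of the 12 ganglion cell markers had an adjusted p below 0.05 in OIR against control, when 12.5% of all genes did. Chat, the enzyme that makes acetylcholine and marks starburst amacrine cells, had the lowest log2 fold change of the 12 amacrine markers in OIR against control (-6.39). It was at 9.39 to 15.5 CPM in controls and at 0.0535 to 0.186 CPM in OIR mice. In treated mice 2, 5 and 10 it was at 0.507, 0.184 and 12.4 CPM, so that mouse 10 alone held it at the control level. The summed amacrine markers instead placed treated mouse 5, at 1010 CPM, between the OIR and control mice. The part of these cell types in the peptide differences was not tested.

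**Figure D4:**
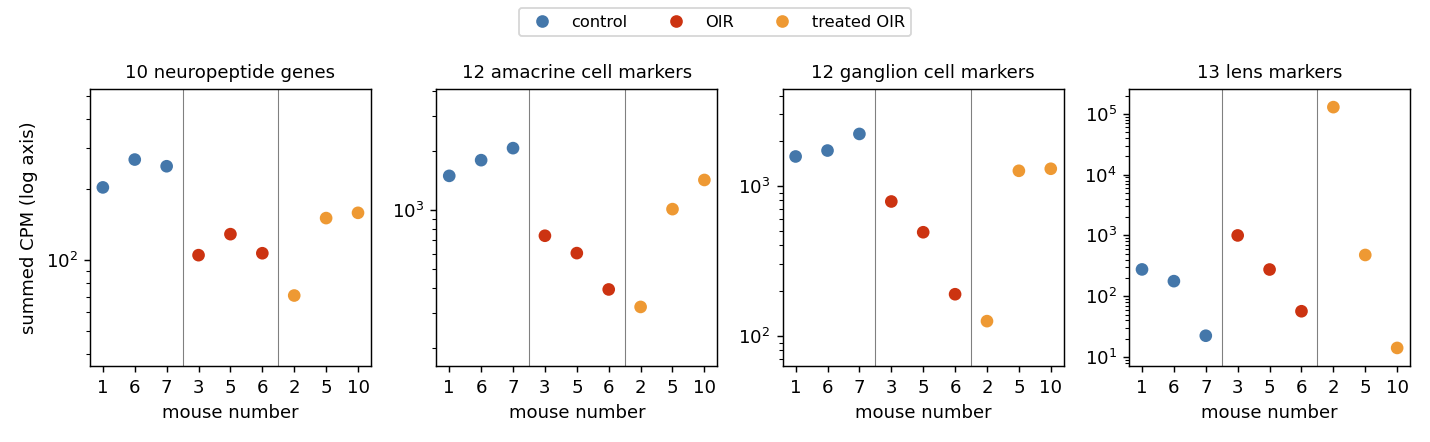
Summed TMM-scaled CPM (log axis, scale differing between panels) of the 10 neuropeptide genes and of 3 marker lists in each mouse; colours are the groups. The peptide, amacrine and ganglion cell sums are lowest in treated OIR mouse 2, at 70.7, 322 and 125 CPM, which holds 129000 CPM of lens markers.

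Lens markers summed to 129000 CPM in treated mouse 2 and to 14.1 to 1000 CPM in the other 8 mice, where OIR mouse 3 was the highest; 1 of the 13 was at 0 in control mouse 7 and 1 in treated mouse 10. With the lens genes left out of the fit, 5 of the 10 peptide genes were again lower at an unadjusted p below 0.05 in OIR against control (13.7% of all genes). None was a DEG (0.291% of all genes). Pigment epithelium markers summed to 307 to 352 CPM in controls, 215 to 416 CPM in OIR and 294 to 520 CPM in treated retina. Muscle and cornea markers summed to at most 11.5 CPM in any retina. The part of lens RNA in the treated values was not tested.

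Of 26 receptors for these peptides 13 had enough counts to be tested, and no opioid receptor was among them. In OIR against control 12 of the 13 were below zero, and the median was -0.88, against 0.03 over all genes. At an unadjusted p below 0.05, 3 of the 13 were lower (12.7% of all genes). Crhr1, a receptor for corticotropin-releasing hormone, was at 9.04, 11.8 and 12.5 CPM in control mice 1, 6 and 7 and at 2.73, 1.21 and 0.27 CPM in OIR mice 3, 5 and 6. In treated mice 2, 5 and 10 it was at 0.634, 5.89 and 10 CPM. Its ligand Crh had the same order, as did Npy, Vip, Tac1, Adcyap1 and the summed amacrine and ganglion cell markers. The log2 fold change of Crhr1 in OIR against control was -3.00 ± 0.92 (adjusted p = 0.107, edgeR). Crhr2, the second receptor of that family, had -2.62 ± 0.56 (adjusted p = 0.0603) in OIR against control, -1.12 ± 0.52 in treated OIR against control and 1.5 ± 0.56 in treated OIR against OIR (adjusted p = 0.283 and 1); without treated mouse 2 the last 2 were -0.69 and 1.95. Adcyap1r1, the PACAP receptor and the third at an unadjusted p below 0.05, was chosen after its values were seen and had -1.54 ± 0.59 (adjusted p = 0.160).

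For each peptide family the most abundant receptor per kb is given here. Vipr2, a receptor shared by VIP and PACAP, was at 34.7 CPM on average in control and 28.3 CPM in OIR retina (log2 fold change -0.29 ± 0.24), so it overlapped between groups in which its ligand Vip did not. Tacr3, the neurokinin B receptor, had -0.55 ± 0.44 in OIR against control and -1.16 ± 0.44 in treated OIR against control (adjusted p = 0.223), the latter being -0.73 without treated mouse 2. Cckbr, a cholecystokinin receptor, was the 1 receptor above zero, at 0.65 ± 0.31 (adjusted p = 0.246), with 18.8 to 21.2 CPM in controls and 24.5 to 39.2 CPM in OIR mice. Npy1r, Sstr2 and Galr2 had -1.35 ± 0.84, -0.88 ± 0.68 and -0.72 ± 0.38, with unadjusted p-values from 0.0884 to 0.226. In treated OIR against OIR, Tacr1, the substance P receptor, had 1.29 ± 0.44 (adjusted p = 0.990), and 0.62 without treated mouse 2. Its level was 22.1, 5.21 and 10.2 CPM in treated mice 2, 5 and 10 and 4.23 to 6.06 CPM in OIR mice, so that treated mouse 5 lay within the OIR range.

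All 14 genes of peptide processing and dense-core granules were tested. In OIR against control 7 were lower at an unadjusted p below 0.05 (12.7% of all genes), with a list median of -0.38. Scg2, a granin of the granule core, was the 1 gene with an adjusted p below 0.05 (165 of all 17540 genes tested), though within the fold limit of a DEG. It was at 314, 417 and 434 CPM in control mice 1, 6 and 7, at 224, 204 and 206 CPM in OIR mice 3, 5 and 6, and at 221, 257 and 285 CPM in treated mice 2, 5 and 10. Every OIR and treated mouse was below every control. Scg2 fell by 0.88 on the log2 scale in OIR (SE 0.15, adjusted p = 0.0432, edgeR). That adjusted p reached 0.175 over the alternatives and was below 0.05 in 11 of 20. Its difference was -0.61 ± 0.15 in treated OIR against control (adjusted p = 0.126) and 0.27 ± 0.15 in treated OIR against OIR. Pcsk1n, an inhibitor of prohormone convertase 1, had -0.70 ± 0.14 in OIR and -0.66 ± 0.14 in treated OIR against control (adjusted p = 0.0539 and 0.102). Chga, another granin, had -0.73 ± 0.15 in treated OIR against control (adjusted p = 0.102). Pcsk2, a prohormone convertase, had 0.28 ± 0.18 in treated OIR against OIR (adjusted p = 1). Treated against control retina, 7 of the 14 were lower at an unadjusted p below 0.05 (8.60% of all genes), and against OIR none was.

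Of 28 other neuropeptide precursors 10 were tested. In OIR against control retina 3 were lower at an unadjusted p below 0.05 (12.7% of all genes): Tac2, Pomc and Grp. The median of the 10 was -0.71, against 0.03 over all genes. Tac2, the precursor of neurokinin B, was at 26.0, 23.4 and 32.7 CPM in control mice 1, 6 and 7, at 8.55, 7.50 and 1.75 CPM in OIR mice 3, 5 and 6 and at 2.98, 19.4 and 22.0 CPM in treated mice 2, 5 and 10. Its order among the mice resembled that of Tac1. Its log2 difference was -2.21 ± 0.71 (adjusted p = 0.118, edgeR) in OIR and 1.32 ± 0.70 (adjusted p = 1) in treated OIR against OIR, or 1.84 without treated mouse 2. Pomc, the precursor of melanocortins and beta-endorphin, had -1.12 ± 0.46 in OIR (adjusted p = 0.180), and Grp, the precursor of gastrin-releasing peptide, which was chosen after its values were seen, had a log2 fold change of -2.31. In treated OIR against control Nmb, the neuromedin B precursor, had -1.12 ± 0.44 (adjusted p = 0.226) and Apela -0.78 ± 0.43 (adjusted p = 0.350), and in treated OIR against OIR Pnoc, the nociceptin precursor, had 1.74 ± 0.95 (adjusted p = 1), or 2.32 without treated mouse 2.

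**Figure D5:**
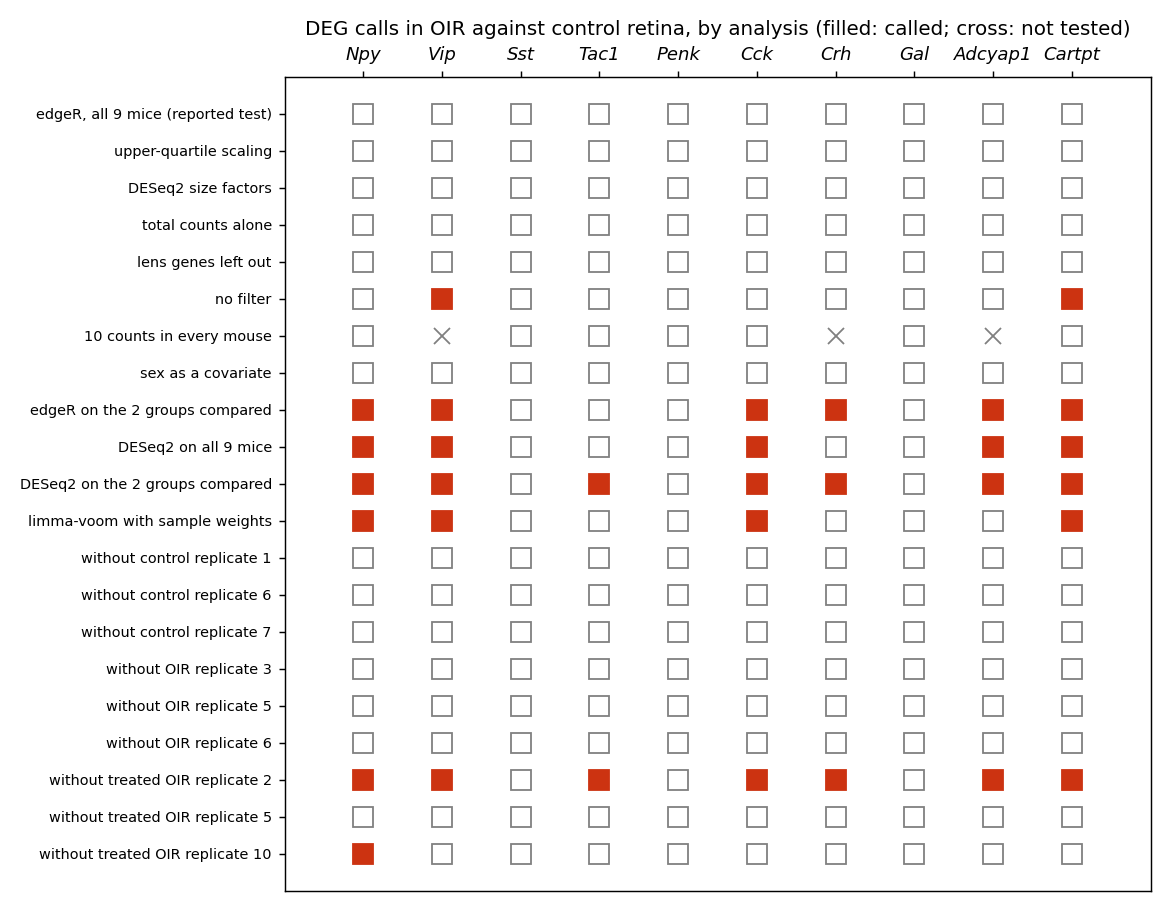
DEG calls for the 10 genes in OIR against control retina in the reported edgeR fit and in 20 alternative analyses; filled squares are calls, open squares are genes tested and not called, crosses are genes not tested. Npy, Vip and Cartpt were each called in 6 alternatives, and Sst, Penk and Gal in none.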

How the data were processed

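RNA-seq was made from retinas of 9 mice, 3 a group, with miRNeasy total RNA and standard Illumina libraries. The authors deposited a table of counts per gene, with no normalization; their processing notes name CASAVA and HISAT, and the counting tool, the annotation and the use of strand are not given in the sources used here. Of 54409 gene identifiers shared with GENCODE M21 (GRCm38), 98.3% had the same position. Library totals of 16028731 to 27213184 counts limit the counting precision. The floor given for 0 counts of Crh covers counting error only, while each SD and SE also holds the spread between mice.

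Groups came from the treatment labels. Counts were fitted in edgeR 4.0.16 (R 4.3.3; TMM, filterByExpr, glmQLFit and glmQLFTest) with 1 mean per group over all 9 mice, and p-values were adjusted by Benjamini-Hochberg over 17540 genes. DEGs had an adjusted p below 0.05 and a log2 fold change beyond 1. Log2 CPM used a prior count of 2. Fits were tested on simulated data. DESeq2 1.42.0, limma 3.58.1 (voom with sample weights), other scalings and filters, sex as a covariate, 2-group fits and leaving out each mouse were alternatives. DESeq2 was given every gene with a count and used its own filter on low means. The 10 genes were named by symbol. From the receptor, processing and other precursor lists, every DEG, the 2 genes with the smallest unadjusted p in each comparison and, for each peptide family, the receptor with the highest CPM per kb were named. Members and lists were chosen with earlier results of these data known. Each label names 1 animal, and p-values measure the spread between these mice. Promoter sequences are RefSeq's (GRCm38.p6); Penk and Crh had no entry.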

Additional observations from a re-analysis of the deposited data

How the results depend on the processing

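The 7 genes lower in OIR than in control retina kept that direction in every alternative run; Vip, Crh and Adcyap1 were not tested with 10 counts required in every mouse. DEG calls depended on the tool and on treated OIR mouse 2. For OIR against control, the reported edgeR fit called 0 of the 10 genes and 53 of all genes. Of the 10 genes and of all genes, 0 and 14 were DEGs with total counts alone, 2 and 260 with no filter, 0 and 107 with 10 counts required in every mouse (where 3 of the 10 had an unadjusted p below 0.05), 0 and 0 with sex as a covariate, 6 and 771 with edgeR on the 2 groups, 5 and 699 with DESeq2 on 9 mice, 7 and 1006 with DESeq2 on the 2 groups, 4 and 822 with limma-voom, and 0 and 165 by adjusted p alone. With 10 counts required in every mouse, 14.0% of all genes were lower at an unadjusted p below 0.05. Leaving out 1 mouse gave 0 to 7 DEGs of the 10 and 0 to 901 of all genes, the highest without treated OIR mouse 2. For treated OIR against control, all-gene DEGs were 3, and 0 with DESeq2 size factors, lens genes left out, sex as a covariate or edgeR on the 2 groups, 13 with no filter, 190 and 131 with DESeq2 on 9 mice and on the 2 groups (1 of the 10 in each), 184 with limma-voom (2 of the 10), and 0 to 6 with 1 mouse left out, where 2 to 5 of the 10 had an unadjusted p below 0.05. For treated OIR against OIR, all-gene DEGs were 0, and 1 with no filter, 19 and 63 with DESeq2 on 9 mice and on the 2 groups, and 1 with limma-voom; of the 10 genes 2 had an unadjusted p below 0.05, 3 with no filter, 1 with total counts alone or sex as a covariate, 0 with 10 counts in every mouse or edgeR on the 2 groups, and 0 to 6 with 1 mouse left out.

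Some of the 10 genes changed sign, none with an adjusted p below 0.05 in the settings given here. Penk in OIR against control had an unadjusted p below 0.05 in edgeR without control mouse 6. So had Cartpt in treated OIR against OIR without treated OIR mouse 2. In these 2 settings both genes kept the sign of the reported fit. In OIR against control Penk was at -0.40 with limma-voom and from -0.26 to 1.24 with 1 mouse left out, and Gal from -0.31 to 0.51. In treated OIR against control Sst was at 0.42 with limma-voom and from -0.65 to 0.24 with 1 mouse left out, Tac1 from -1.02 to 0.18, Penk at 0.34 with sex as a covariate and from -0.66 to 0.83, Crh from -0.83 to 0.88, and Gal from -0.56 to 0.03. In treated OIR against OIR Penk was at 0.21 with sex as a covariate, Gal from -0.69 to 0.00 and Cartpt from -0.22 to 0.48 with 1 mouse left out. Why these values moved was not tested. No paired analysis was made, since replicate numbers name animals and do not pair them. The groups also share fewer than 2 of these numbers. At 2 to 24 counts of Vip and 2 to 11 of Crh in OIR libraries, depth limits how far their levels can be told apart.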
